A study of Mus musculus with 14 samples.

Results

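Loss of a single floxed Lmna copy in hepatocytes was examined in chow-fed mice by comparing the livers of 3 mice labelled LMNA flx/+; Alb-cre+ (HET) with those of 2 mice labelled LMNA +/+; Alb-cre+ (WT). These 5 arrays are those the labels give to the 2 genotypes on chow, out of 14 in the whole series, and the question is whether losing 1 of 2 copies is enough to change liver transcripts, known as haploinsufficiency. All mice were male, on a C57BL/6 background and carried Alb-Cre, in which the albumin promoter drives Cre recombinase in hepatocytes, so Cre itself is present in the WT livers too. HET mice F1 and F2 were 26.4 weeks old and HET mouse P1 was 24 weeks old, while WT mouse G1 was 27 weeks old and WT mouse N1 was 24.6 weeks old. The remaining 9 arrays came from 3 LMNA flx/flx; Alb-cre+ (KO) livers on chow (38.9 weeks), from 3 KO livers on a high-fat diet with fructose and sucrose in the drinking water (HFD, 35.3 weeks) and from 3 HET livers on HFD (30 to 30.4 weeks). Each diet was given for 14 weeks. They enter here only through the estimate of the spread, through a difference on HFD that does not use the 5 chow arrays, and as values set beside them. Non-hepatocyte cells of the liver keep both Lmna copies, and in whole tissue fewer cells of a type cannot be told apart from less RNA per cell. Nothing in the labels says whether littermates were used. Each array is labelled with its own liver sample, so p-values measure the spread between these samples, and WT rests on 2 of them.

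Lmna encodes lamin A and lamin C, intermediate filament proteins that form the nuclear lamina under the inner nuclear membrane. The lamina gives the nucleus its stiffness, anchors silent chromatin at the nuclear rim and is tied to the cytoskeleton through SUN and nesprin proteins. In people, mutations of one LMNA copy cause several disorders, among them a partial lipodystrophy with fatty liver, which is why the level at which a single copy suffices is of interest in this tissue.

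Values are log2 intensities, so a difference of 1 is 2-fold, and differences are HET minus WT with ± giving the standard error from limma unless SD is written. The tissue label was borne out by hepatocyte transcripts. Albumin (Alb) averaged 13.5 over the 5 arrays, transthyretin (Ttr) 13.2 and the urea cycle enzyme Cps1 12.9, each above 99% of the genes tested. Median intensities over all probe sets lay between 2.21 and 2.30 in the 14 arrays, and genes near that level are close to background.

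Lmna was read by 1 probe set. Its level was 4.29, 4.40 and 4.25 in HET livers F1, F2 and P1, against 4.50 and 4.43 in WT livers G1 and N1. All 3 HET livers were lower than both WT livers, but the gap between the lowest WT and the highest HET liver was small. The difference was -0.15 ± 0.14 (adjusted p = 0.999, 95% interval -0.45 to 0.14). The sources used here do not say which exons were floxed or which of them the probe set covers, so this value does not measure intact transcript by itself. The older HET livers F1 and F2 differed from the older WT liver G1 by -0.15, and the younger HET liver P1 from the younger WT liver N1 by -0.19. The probe set stood lower in livers that lost both copies, at 4.09, 3.78 and 3.67 in chow-fed KO livers, a difference from WT of -0.62 ± 0.14 (adjusted p = 0.0393). That is the mean change this probe set showed on chow when both copies were lost. Its HFD levels were 3.90, 4.07 and 3.99 in KO livers, against 4.07, 4.07 and 4.30 in HET livers, and those ranges overlapped.

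**Figure D1:**
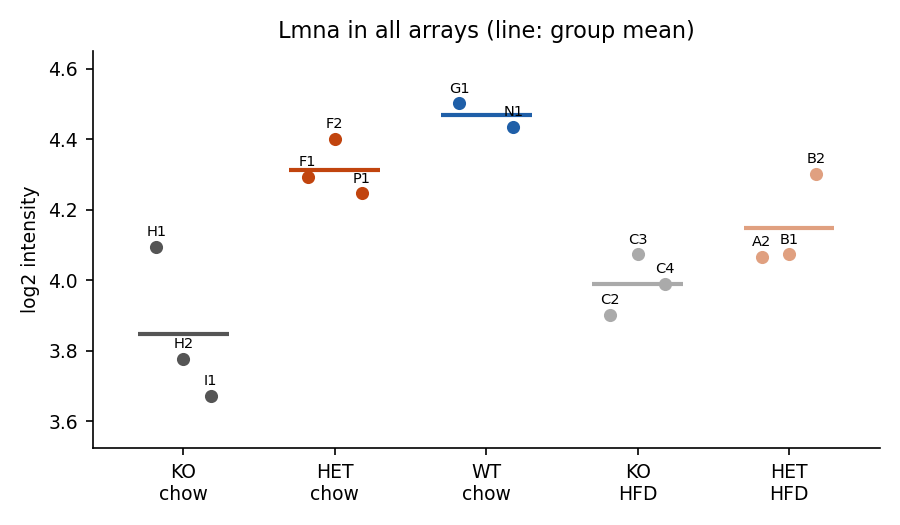
Lmna log2 intensity (vertical axis) in each of the 14 arrays, by genotype and diet along the horizontal axis; points are livers and lines group means. The 3 HET chow livers lie between 4.25 and 4.40, below the WT livers at 4.43 and 4.50.

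No other lamina gene passed either. The nuclear lamina list had 16 measured members with 0 called higher and 0 called lower in HET, where 0% of all 22180 genes were called, and its median difference was 0.07 against 0.01 for all genes. Lamin B2 (Lmnb2), a second lamin type present in most cells, stood at 3.68, 4.37 and 4.10 in HET livers, against 3.47 and 3.73 in WT livers. These ranges overlapped, and the difference of 0.45 ± 0.24 did not pass. Lamin B1 (Lmnb1) differed by 0.10 ± 0.22. Among the membrane partners, the lamin B receptor (Lbr) differed by 0.18 ± 0.15, emerin (Emd) by 0.30 ± 0.20 and Tmpo, which encodes the LAP2 proteins, by 0.16 ± 0.12. Lbr stood at 7.31, 7.23 and 7.43 in HET livers, against 7.06 and 7.23 in WT livers, so its groups touched without overlapping. Of the proteins that link the lamina to the cytoskeleton, Sun1 differed by -0.02 ± 0.19 and Sun2 by -0.42 ± 0.24. Sun2 stood at 6.52, 6.55 and 7.35 in HET livers, against 7.14 and 7.32 in WT livers, so HET liver P1 was as high as WT, and its second, dim probe set differed by 0.04. The enzymes that mature prelamin A also stayed within their spread, with Zmpste24 at 0.05 ± 0.13 and Icmt at 0.15 ± 0.13.

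Across the transcriptome no gene separated HET from WT livers at the threshold. With limma's adjusted p under 0.05, 0 of 22180 genes were called, and 954 (4.30%) had an unadjusted p under 0.05. Of these, 490 were higher in HET (2.21% of all genes) and 464 lower (2.09%). The smallest adjusted p was 0.0769, for Spsb3. Differences were mostly small, since 96.2% of genes differed by less than 0.5 and only 72 by 1 or more. Their precision was limited by the number of livers: the median 95% interval reached 0.37 either side of the difference. For 92.6% of genes the whole interval lay between -1 and 1, so a 2-fold change of intensity was outside it. For the rest such a change was not excluded by these 5 livers. Among the 9857 genes with a mean level of at least 4 the share was 91.8%. These shares describe intensities, and for genes close to background they do not measure a change of transcript. Ranges that did not overlap were found for 3963 genes, with HET above WT in 2217 (10% of all genes) and below in 1746 (7.87%), and such counts are read here only beside that background.

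**Figure D2:**
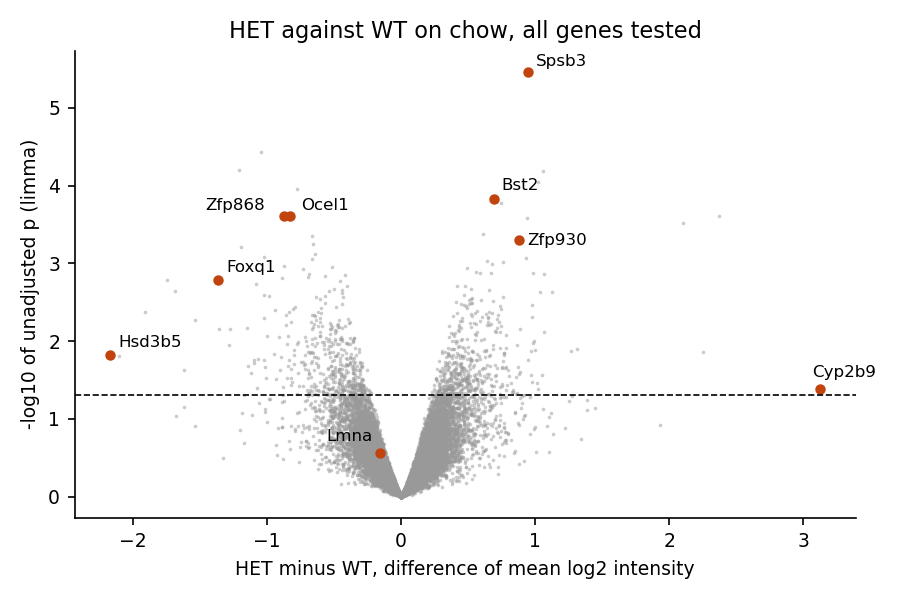
Each point is 1 of the 22180 genes tested; the horizontal axis is the HET minus WT difference of mean log2 intensity and the vertical axis -log10 of the unadjusted limma p, with a dashed line at 0.05. Spsb3 lies highest and Cyp2b9 and Hsd3b5 lie farthest out, and none of them passed after adjustment.

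Spsb3, which encodes an adaptor with a SOCS box that recruits proteins to a ubiquitin ligase, came nearest to a call. It stood at 4.86, 4.68 and 4.66 in HET livers, against 3.80 and 3.78 in WT livers. All HET values were higher than all WT values by a gap larger than the spread within either genotype, and the difference was 0.94 ± 0.12 (adjusted p = 0.0769). It was called when genes with a mean log2 level under 4 were left out, without the HET liver B1 on HFD, and without HET liver P1. Bst2, the antiviral membrane protein tetherin, stood at 10.09, 10.06 and 10.09 in HET livers, against 9.39 and 9.40 in WT livers. Livers of the same genotype lay close together, and the difference of 0.69 ± 0.13 did not pass (adjusted p = 0.448). Smc2, a condensin subunit, differed by 0.68 ± 0.16, the zinc-finger gene Zfp930 by 0.88 ± 0.19 and Dnajb14, a co-chaperone of the endoplasmic reticulum, by 0.49 ± 0.12. Rfxank, a subunit of the complex that drives class II antigen-presentation genes, differed by 0.98 ± 0.24, and Mlst8, a subunit of both mTOR complexes, by 0.48 ± 0.12. None of these genes passed with all arrays and genes in the fit.

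On the lower side, Ocel1 stood at 5.04, 4.98 and 4.88 in HET livers, against 5.82 and 5.76 in WT livers. The 3 HET livers were lower by more than the spread within either genotype, with a difference of -0.83 ± 0.16 (adjusted p = 0.448). Zfp868 differed by -0.87 ± 0.17, Eva1a, an endoplasmic reticulum and lysosome protein linked to autophagy, by -0.65 ± 0.14, and Trim21, a cytosolic antibody receptor, by -0.64 ± 0.15. Ttc8, a subunit of the BBSome that serves cilia, differed by -0.67 ± 0.16 and the transcriptional cofactor Arid5b by -0.68 ± 0.17. Foxq1, a forkhead transcription factor, stood at 6.27, 6.81 and 6.54 in HET livers, against 7.43 and 8.39 in WT livers. The WT livers lay farther from each other than the lower of them lay from the HET mean, and the difference was -1.37 ± 0.35 (adjusted p = 0.861) with both, or -0.89 without N1. Foxq1 has another probe set, dimmer and opposite in sign, at 3.63, 2.91 and 2.80 in HET livers, against 2.82 and 3.05 in WT livers. The second probe sets of Dnajb14 and Eva1a lay near or below the array medians and had differences of 0.10 and -0.09.

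The largest differences belonged to genes that varied between mice of the same genotype. Cyp2b9, a female-biased cytochrome P450, stood at 3.43, 4.42 and 8.51 in HET livers, against 1.34 and 3.32 in WT livers. A single HET liver, P1, carried most of this, and the difference of 3.13 ± 1.38 did not pass (adjusted p = 0.999). Without P1 it was 1.60, so that liver moved the value by over 1.5 times. Its relative Cyp2b13 had the same liver apart, at 1.90, 2.66 and 7.57 in HET livers, against 2.11 and 2.13 in WT livers. Hsd3b5, a male-specific steroid dehydrogenase, stood at 6.20, 5.44 and 8.25 in HET livers, against 8.39 and 9.21 in WT livers. HET liver P1 was close to WT, and the difference was -2.17 ± 0.78 (adjusted p = 0.999). The alcohol dehydrogenase pseudogene Adh6-ps1 was the reverse, at 8.10, 8.21 and 6.20 in HET livers F1, F2 and P1, against 9.32 and 8.93 in WT livers, so that P1 lay farthest from WT. Mup21, a major urinary protein made by male liver, stood at 6.88, 7.08 and 7.82 in HET livers, against 8.33 and 8.49 in WT livers, and its difference of -1.15 ± 0.36 did not pass (adjusted p = 0.970).

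Among other genes with differences of 2-fold or more, some were more even among the HET livers. Sik1, a salt-inducible kinase that restrains glucose production, stood at 8.30, 7.64 and 7.44 in HET livers, against 6.63 and 6.71 in WT livers (1.13 ± 0.30, adjusted p = 0.935). Nt5e, the surface enzyme CD73 that makes adenosine, stood at 6.47, 6.31 and 6.47 in HET livers, against 5.72 and 5.04 in WT livers (1.03 ± 0.27, adjusted p = 0.935). Both genes stood higher in every HET liver than in either WT liver, and neither passed. The interferon-inducible GTPase Gbp4 stood at 3.74, 4.37 and 4.20 in HET livers, against 3.09 and 3.00 in WT livers (1.06 ± 0.54). The chemokine gene Cxcl10 stood at 5.62, 5.08 and 4.04 in HET livers, against 3.80 and 3.998 in WT livers (1.01 ± 0.43), so HET liver P1 was almost at the WT level. Among genes lower in HET, the paired receptor gene Pilrb1 stood at 2.28, 2.73 and 3.12 in HET livers, against 3.91 and 5.33 in WT livers (-1.91 ± 0.55), and the Wnt receptor gene Fzd8 differed by -1.02 ± 0.30. WT liver N1 lay far above G1 for Pilrb1, and without N1 the difference was -1.20, so that liver moved it by over 1.5 times.

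**Figure D3:**
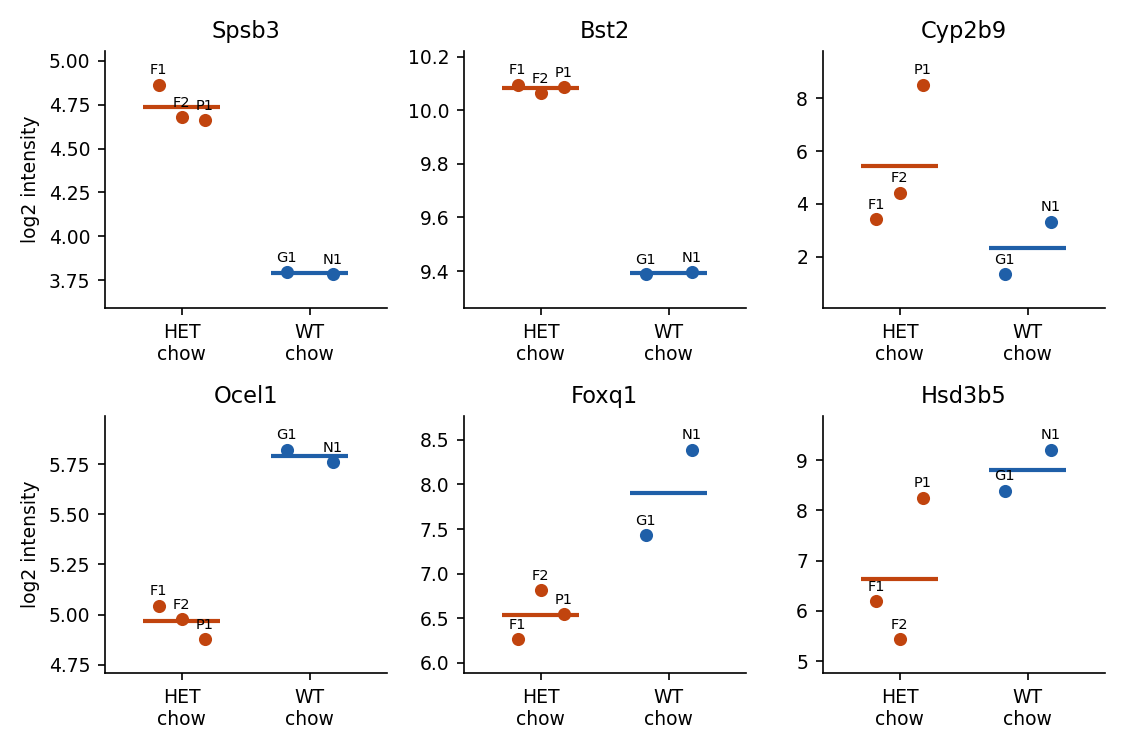
Log2 intensity (vertical axis) of 6 genes in the 3 HET and 2 WT chow livers; points are livers with their names and lines group means, and the axes do not start at 0. Spsb3, Bst2 and Ocel1 were tight within each genotype, while P1 stands apart from the other HET livers for Cyp2b9 and Hsd3b5.

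The genes that change most when both copies are lost were then followed in HET livers. From an earlier description of the KO livers of these data, 24 genes with large changes were taken. On HFD, 20 of the 24 were called, 12 higher and 8 lower in KO, against 5.5% and 2.06% of all genes. That difference of KO from HET uses none of the 5 chow arrays, which enter only through the pooled spread. Since the genes were picked for large KO changes in these data, this count follows largely from the choice and is no separate evidence. In HET chow livers none of the 24 was called. The signs of their HET minus WT values are not counted here, since the genes were chosen partly on KO livers compared with the same WT arrays. The median size of the difference was 0.50 for HET minus WT on chow and 3.36 for KO minus HET on HFD, the genes having been chosen for their large changes in KO. Cidea, a lipid droplet protein scarce in lean liver, differed by 6.90 between KO and HET on HFD and by 0.13 ± 0.45 between HET and WT on chow. It stood at 1.72, 2.03 and 2.71 in HET livers, against 2.02 and 2.03 in WT livers, which is background in all 5. Ly6d differed by 5.69 on HFD and by -0.54 ± 0.32 between HET and WT on chow. The interferon-inducible Ifi27l2b differed by 4.46 on HFD and by 0.89 ± 0.28 between HET and WT on chow. It stood at 3.67, 2.93 and 3.66 in HET livers, against 2.45 and 2.62 in WT livers, and these ranges did not overlap.

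The same was done for every gene called between KO and HET livers on HFD, in whose difference the chow arrays have no part, although they add to the pooled spread behind its p-values. The 1221 genes higher in KO had a median HET minus WT difference of 0.07 on chow, and 65.0% of them were above 0, against a median of 0.01 and 53.2% for all genes tested. The 456 genes lower in KO had a median of -0.06, with 33.8% above 0. Both medians lay on the side of the KO change, and both were far smaller than the differences that defined the sets. Taken liver by liver, the median of the genes higher in KO was 0.16 in HET F1, 0.05 in F2 and 0.03 in P1 relative to the WT mean, and that of the genes lower in KO was -0.06, -0.07 and -0.06. The median of the genes higher in KO thus leaned on F1, and it was 0.03 without that liver and 0.04 without WT liver N1. The share above 0 was then 57.3% and 57.1%, while that of all genes was 50.7% and 49.98%. Genes are not independent, and these medians carry no test.

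**Figure D4:**
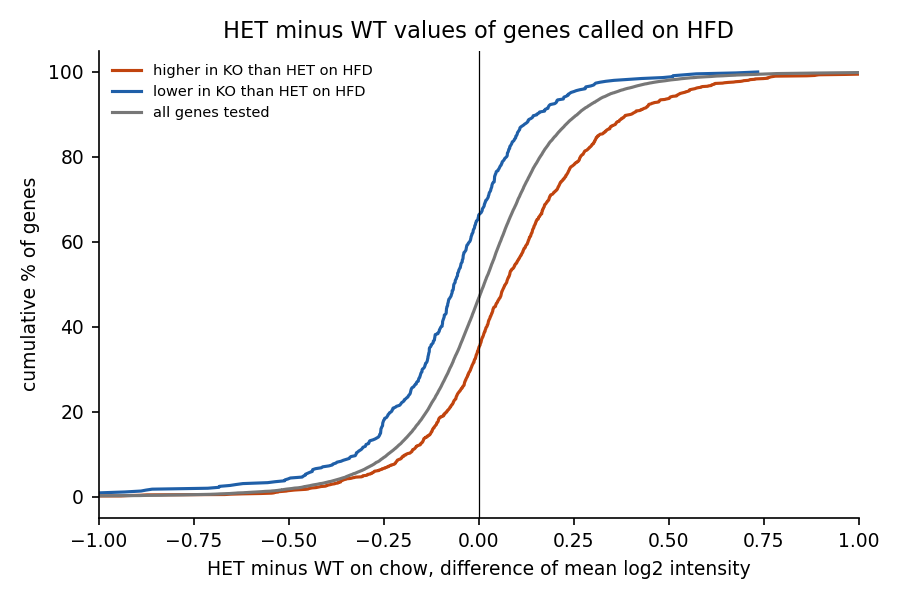
Cumulative percentage of genes (vertical axis) by HET minus WT difference on chow (horizontal axis, log2) for the 1221 genes higher and the 456 lower in KO than HET livers on HFD, and for all 22180 genes. The 2 curves lie to the right and to the left of that of all genes, by less than 0.1 at their medians.

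Gene lists for liver pathways and cell types were described by their counts. No member of any of the 36 lists was called between HET and WT livers. The list of male-biased liver genes, targets of pulsatile growth hormone in male mice, had 9 of 27 measured members with HET below WT and 0 above, beside 7.87% and 10% of all genes. Its median difference was -0.34, and 4 members were above 0, beside 53.2% of all genes. The lists were written with earlier results of these data known. Hsd3b5, Mup21 and Adh6-ps1 of this list are also among the genes picked above for large KO changes, partly against the same WT arrays. The count of this list is therefore no separate evidence. Besides Hsd3b5 and Mup21, the fatty acid hydroxylase Cyp4a12a differed by -0.57 ± 0.24 and the oxysterol hydroxylase Cyp7b1 by -0.34 ± 0.31. On HFD, 17 members of this list were lower and 2 higher in KO than in HET, beside 2.06% and 5.5% of all genes. Female-biased genes had 7 of 25 above and 1 below, beside 10% and 7.87%, with a median of 0.16. The lipoprotein receptor Vldlr stood at 4.16, 4.78 and 4.20 in HET livers, against 3.80 and 3.74 in WT livers (0.61 ± 0.24), and did not pass. The CAR target Cyp2b10 differed by 0.88 ± 0.42.

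Interferon-stimulated genes had 7 of 25 members with HET above WT and 0 below, beside 10% and 7.87% of all genes, and a median of 0.19. Besides Bst2 and Ifi27l2b, these included Parp14 (0.26 ± 0.11), Irf9 (0.16 ± 0.15), which carries the interferon signal to DNA, Zbp1 (0.43 ± 0.31) and the RNA sensors Ifih1 (0.19 ± 0.16) and Ddx58 (0.12 ± 0.15). Ifi27l2b was among the genes picked above for large KO changes, so the count of this list too is no separate evidence. Other members with known strong induction by interferon overlapped between genotypes, with Ifit1 at -0.01 ± 0.30, Irf7 at -0.02 ± 0.21, Usp18 at -0.02 ± 0.22 and Isg15 at 0.28 ± 0.19, and on HFD 20 of the 25 were higher in KO than in HET, beside 5.5% of all genes. Of the p53 targets 14 of 15 were above 0, beside 53.2% of all genes, with a median of 0.17. Without overlap, 3 of the 15 had HET above WT and 0 below, beside 10% and 7.87% of all genes. Cdkn1a, the cell cycle inhibitor p21, stood at 7.07, 7.06 and 4.54 in HET livers, against 5.02 and 4.66 in WT livers, so the HET livers were split between the older and the younger mice. Cell cycle genes had 6 of 30 above and 0 below, beside the same 10% and 7.87%, with a median of 0.06. The replication licensing gene Mcm4 differed by 0.45 ± 0.17, and the proliferation marker Mki67 by 0.06 ± 0.26.

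In metabolism, G6pc, the enzyme that releases glucose from liver, stood at 10.73, 11.02 and 9.76 in HET livers, against 9.80 and 9.25 in WT livers (0.98 ± 0.29, adjusted p = 0.970). The genotypes overlapped, since P1 lay just below WT liver G1. It was called without P1. Nr0b2, the bile acid-induced repressor SHP, differed by 0.68 ± 0.29 and the sterol transporter Stard4 by -0.51 ± 0.21. Medians of the lists for fatty acid and triglyceride synthesis, cholesterol synthesis, fatty acid oxidation, glucose metabolism, bile acids, lipid droplets and the mitochondrial respiratory chain lay between -0.05 and 0.03. Lists of NRF2 targets and endoplasmic reticulum stress had medians of 0.08 and 0.10.

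Markers of other liver cells differed between livers of the same genotype. The extracellular matrix list had 25 of 28 members above 0, beside 53.2% of all genes, with a median of 0.18, and no member was called. Between the older and the younger livers its median difference was 0.44, against 0.03 for all genes. The mean level of the list was 6.08, 5.67 and 5.33 in HET livers, against 5.64 and 5.28 in WT livers, so HET liver F1 was highest and P1 was close to WT liver N1. Col1a1, the main chain of fibrillar collagen, stood at 6.09, 5.24 and 4.64 in HET livers, against 5.02 and 3.83 in WT livers, and these overlapped. The 13 measured markers of recruited macrophages and monocytes averaged 3.58 to 4.38 in HET livers, against 3.68 to 3.93 in WT livers. The 20 lymphocyte markers averaged 2.59 to 3.27 in HET livers, against 2.64 to 2.81 in WT livers, and F1 was again the highest. The 16 stellate cell markers averaged 6.14 to 6.81 in HET livers, against 6.12 to 6.67 in WT livers, and the 10 Kupffer cell markers 7.36 to 8.02 in HET livers, against 7.40 to 7.96 in WT livers. The 18 endothelial markers averaged 7.08 to 7.22 in HET livers, just below the 7.24 to 7.27 of WT livers. The 12 cholangiocyte markers averaged 3.64 to 3.92 in HET livers, against 3.70 to 3.76 in WT livers. The 13 neutrophil markers averaged 1.85 to 2.01 in HET livers, against 1.84 to 1.94 in WT livers. The 13 markers of fat, pancreas, muscle and red cells averaged 2.19 to 2.30 in HET livers, against 2.17 to 2.38 in WT livers, so both of these last lists lay at background. The part of these cells in the values of single genes was not tested.

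What separated the 5 livers most was not genotype. The first principal component held 44.4% of their variance. HET F1 and F2 and WT G1 lay on its positive side, at 26.6, 20.4 and 8.4. HET P1 and WT N1 lay on its negative side, at -27.9 and -27.5. These sides hold the older (26.4 to 27 weeks) and the younger (24 to 24.6 weeks) mice, and each age class holds both genotypes. WT G1, the oldest mouse, lay between the other older livers and the younger ones, so the scores did not follow the order of age. The second component held 19.8% and split the livers by genotype. HET F1, F2 and P1 were positive on it, at 3.0, 16.9 and 12.9, and WT G1 and N1 negative, at -26.9 and -5.9. HET F1 and F2 correlated with WT G1 at 0.993 over all genes tested and with HET P1 at 0.989 and 0.990, while HET P1 and WT N1 correlated at 0.994. A term for age class beside genotype called 242 genes, 126 higher in the older mice (0.568% of all genes) and 116 lower (0.523%). Of these, 134 differed by at least 2-fold. The count was 105 without G1, N1 or F1, 121 without F2 and 13 without P1, so it rests on the few livers of each class. The labels name no hour of dissection, litter or array batch, and these cannot be told apart from the age class.

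Among the genes that differed between the age classes were members of the circadian clock, the loop in which ARNTL (BMAL1) and CLOCK activate the genes of their own repressors. Of 19 clock genes measured, 3 rose and 7 fell in the older mice, beside 0.568% and 0.523% of all genes. Arntl stood at 8.13, 8.34 and 6.48 in the older livers F1, F2 and G1, against 4.22 and 4.63 in the younger livers P1 and N1. The classes did not overlap, and Arntl rose by 3.09 ± 0.45 (adjusted p = 0.00756). Its partner Clock rose by 1.15 ± 0.12. Among the genes they activate, Ciart stood at 3.68, 3.60 and 5.47 in the older livers, against 7.12 and 7.49 in the younger livers, and fell by 2.86 on the log2 scale. Per3 fell by 2.41, the PAR-domain transcription factor gene Tef by 1.61, the mitotic kinase gene Wee1 by 3.18 and the deubiquitinase gene Usp2 by 2.96. The calls of Arntl, Wee1, Usp2 and Per3 were lost without P1, with adjusted p of 0.350, 0.110, 0.211 and 0.158, and that of Ciart without F1, F2 or P1 (adjusted p up to 0.555). In the older class WT liver G1 lay between the HET livers and the younger mice for each of these genes. The clock gene Nr1d1 went the other way from Ciart, Per3, Tef, Wee1 and Usp2. It rose by 0.78 ± 0.16 (adjusted p = 0.0420), and G1 stood highest for it, at 9.49.

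**Figure D5:**
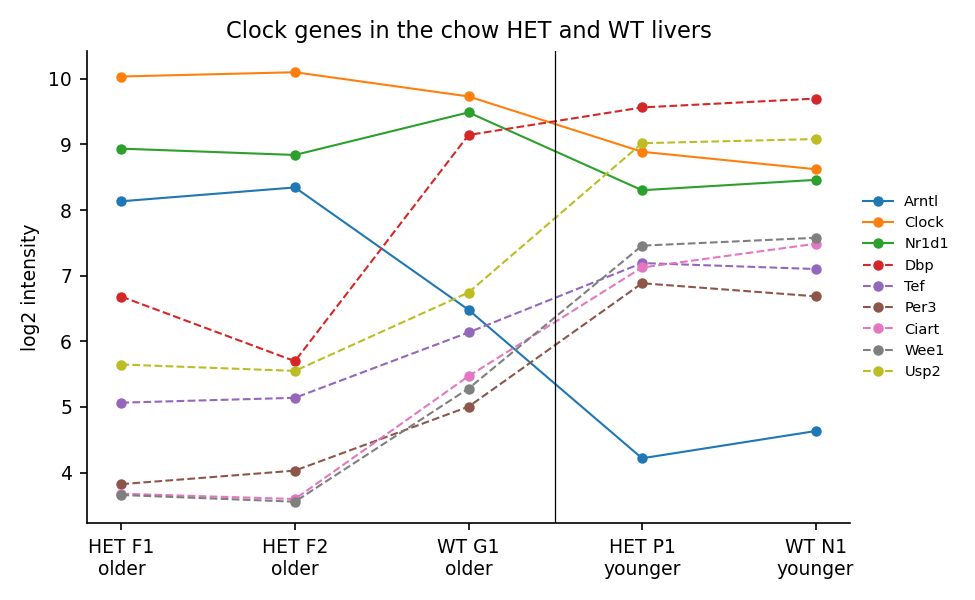
Log2 intensity (vertical axis) of 9 clock genes in the 5 chow livers, the older mice left of the vertical line and the younger right of it; solid lines are genes that rose in the older mice and dashed lines genes that were lower there. Arntl is high where Ciart, Wee1, Usp2 and Per3 are low, and WT liver G1 lies between the other older and the younger livers for all genes shown but Nr1d1.

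Promoters of an oppositely moving pair are shown because their letters differ in the clock elements they hold. Both sequences are from RefSeq on GRCm38.p6 and run 5′ to 3′ along the gene's strand. In Arntl (chr7:113207261-113207560, plus strand) the capitals mark TAGGTCA, the core of the element bound by ROR and REV-ERB receptors, and in Ciart (chr3:95882179-95882478, minus strand) they mark CACGTG, the E-box bound by CLOCK and ARNTL.
Arntl: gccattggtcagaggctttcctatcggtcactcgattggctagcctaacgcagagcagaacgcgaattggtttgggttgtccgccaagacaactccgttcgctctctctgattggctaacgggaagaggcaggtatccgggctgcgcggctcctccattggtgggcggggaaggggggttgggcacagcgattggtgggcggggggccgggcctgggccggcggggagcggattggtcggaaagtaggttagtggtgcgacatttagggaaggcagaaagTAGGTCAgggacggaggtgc
Ciart: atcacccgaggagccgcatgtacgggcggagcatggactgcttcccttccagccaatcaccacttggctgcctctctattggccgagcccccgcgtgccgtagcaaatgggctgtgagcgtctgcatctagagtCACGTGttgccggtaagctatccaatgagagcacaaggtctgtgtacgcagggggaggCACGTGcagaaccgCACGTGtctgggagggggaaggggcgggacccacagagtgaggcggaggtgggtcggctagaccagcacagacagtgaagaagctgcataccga
Searched on both strands, CACGTG was present in 27.3% of the 22 promoters of the clock list and in 7.15% of all 32851 promoters of the same length, and TAGGTCA in 9.09% and 2.61%. A match describes the letters and not a bound site.

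Other genes with the largest age-class differences lie outside the core loop. The intestinal-type peptide transporter Slc15a1 stood at 5.98, 5.35 and 5.53 in the older livers, against 1.81 and 1.78 in the younger livers, and rose by 3.81 ± 0.22. Both younger livers were under the median intensity of their arrays, and a rise out of background has no firm size. The steroid hydroxylase Cyp17a1 rose by 3.24 and the leptin receptor Lepr by 2.44, and both calls were lost without P1. Rgs16, a regulator of G protein signalling, fell by 4.10, the thyroid hormone deiodinase Dio1 by 2.19 and the xenobiotic receptor gene Nr1i3, which encodes CAR, by 2.10. These calls too were lost without P1, those of Rgs16 and Nr1i3 also without G1 or N1, and that of Nr1i3 also without F1 or F2. In glucose metabolism 2 of 19 members rose and 3 fell, beside 0.568% and 0.523% of all genes. G6pc (0.87) and Ppp1r3c (1.25) rose, and glycogen synthase Gys2 (-1.08) and the glucose transporter Slc2a2 (-0.78) were among those that fell. In the lamina list the nesprin gene Syne1 rose by 1.01 in its brightest probe set. Of its 58 other probe sets, 31 were higher in the older livers, with a median of 0.02.

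The age classes were unevenly spread over the genotypes, with 2 of 3 HET livers and 1 of 2 WT livers older. The clock list had 0 members called between HET and WT, 1 of 19 with HET above and 1 below without overlap, beside 10% and 7.87% of all genes, and a median difference of -0.35. Dbp, the PAR-domain factor with the widest daily swing in liver, stood at 6.68, 5.70 and 9.56 in HET livers, against 9.14 and 9.70 in WT livers. F1 and F2 were low and P1 was within the WT range, so the difference of -2.11 ± 0.76 did not pass (adjusted p = 0.999). Without P1 the difference of Dbp was -3.23. Bhlhe41, a clock repressor, stood at 3.71, 3.05 and 4.55 in HET livers, against 5.15 and 5.11 in WT livers (-1.36 ± 0.42, adjusted p = 0.970). With age class as a term beside genotype, 0 genes were called between HET and WT and 1079 had an unadjusted p under 0.05. Whether the genotype difference itself changed with age class was tested with an interaction term, which called 0 genes (0% of all genes, 1062 at an unadjusted p under 0.05, smallest adjusted p = 0.286). Over all genes, the HET minus WT differences within the older and within the younger livers had the same sign for 49.8%.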

How the data were processed

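Liver RNA was hybridized to Affymetrix whole-transcript arrays, 1 mouse per array, from 400 ng of total RNA per the labels' protocols. The deposited values are log2 intensities after RMA, per the submitters' processing notes, which name RMA and limma without versions; the notes do not say whether batches were adjusted. Of 41345 probe sets, 23521 carried 1 gene symbol. The brightest on average over 14 arrays was kept for each of 22180 genes, with no filter on level; 1082 genes had several. All 14 arrays entered 1 linear model, in which each group has its own mean, fitted with limma 3.58.1 in R 4.3.3 (9 residual and 3.83 prior degrees of freedom), with Benjamini-Hochberg adjustment over all genes and a call at an adjusted p under 0.05. Age class and its interaction with genotype were added for the 5 chow arrays as further terms. In the interaction model some cells hold 1 array, which is assumed to vary like the others. The procedure was tested on simulated data.

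The comparison, gene lists (36, with 673 of 745 entries measured) and tests were chosen with earlier results of these data known. Named genes are the lamina list, the 10 per direction with the smallest p and with the largest difference among genes whose ranges do not overlap and whose higher mean is at least 4, up to 4 list members with the smallest p, 24 genes with large KO changes, and the 12 largest age-class rises and falls whose groups do not overlap. Predicted genes, small RNAs and receptor segments were not named. Cyp2b13, Mki67, Irf9, Zbp1, Cyp7b1, Isg15, Irf7, Ifit1, Ifih1, Ddx58, Ppp1r3c and the clock and lamina members beyond this rule were chosen for naming with their values in view. Alternatives were array weights, a trended and robust prior, a level filter, other probe set summaries, fewer arrays, other scalings, a random block for arrays whose names share a letter, age terms and leaving out each array. The number of arrays limits the precision.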

Additional observations from a re-analysis of the deposited data

How the results depend on the processing

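The count of genes called between HET and WT livers was 0 in most of the settings tried. It was 1 with only genes of mean level 4 or more (Spsb3), 1 with age in weeks as a linear term (Ift57) and 1 at an adjusted p under 0.1. Leaving out each array in turn gave 0 to 10, with 10 without HET P1, 2 without WT G1 and 1 without KO array H2 or HET array B1 on HFD. Without P1 both HET livers are older mice. The difference of Lmna kept its sign, at -0.20 to -0.12. The interaction with age class gave 0 to 1 genes when single arrays were left out, and without G1, N1 or P1 it could not be fitted. The age class count of 242 was 386 with a trended and robust prior, 370 with only genes of mean level 4 or more, 104 over all probe sets, 95 with the 5 arrays alone and 452 at an adjusted p under 0.1. With a clock index as a term (the Dbp level less the Arntl level, chosen after seeing the data) it was 2 (Frmd5 and Pcdh20). Leaving out each array gave 13 to 325. The clock index is built in part from Arntl, itself called between the classes. It was 5.35 and 5.07 in the younger livers P1 and N1, against -1.45, -2.65 and 2.66 in the older livers F1, F2 and G1. The loss of calls was thus partly built in, and the cause was not tested. Signs of some HET minus WT differences near 0 turned. Cidea was -0.15 without P1, within -0.15 to 0.35 over all single arrays left out. Cidec was -0.16 with array weights, -0.042 with a linear age term, and -0.44 to 0.58 with single arrays left out, negative without G1 and P1. C4a ranged from -0.69 to 0.18, Adgrf1 from -0.87 to 0.10 and Oasl2 from -0.073 to 0.75 with single arrays left out. Usp18 was 0.030 with an age class term, 0.033 with the clock index and -0.24 to 0.21 with single arrays left out. Orm3 was 0.051 with an age class term, 0.83 with the clock index and -2.35 to 1.45 with single arrays left out. Single arrays also moved some differences that did not pass by over 1.5 times, among them Col1a1 (0.30 to 1.49), Nr0b2 (0.26 to 1.10), Cdkn1a (0.96 to 2.23) and Fzd8 (-1.45 to -0.60). No paired analysis was possible because the number in an array name does not mark 1 mouse per genotype: F1 and P1 share it among HET and G1 and N1 among WT.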

Other observations

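Several of the genes nearest to a call lie within a stretch of chromosome 8, with other tested genes between them. This arrangement was noticed after the values were seen and is described with no test. In the gene order of GRCm38.p6, 85 tested genes run there between Slc18a1 and Colgalt1, and 17 of them (20%) had an unadjusted p under 0.05 between HET and WT livers, 9 higher and 8 lower in HET, against 4.30% of all genes. Both end genes were themselves among the 17, so the choice of ends raises this share. Among all 21626 windows of 25 neighbouring tested genes, the highest count at that p was 7, reached in 9 windows, 5 on chromosome 8 and 4 on chromosome 13. Zfp930, Rfxank, Bst2 and Colgalt1 stood higher in HET, and Zfp868, Zfp963, Slc25a42 and Ocel1 lower. For 9 of the 85 genes (10.6%) all 12 arrays with a floxed copy, of either diet, lay on one side of both WT arrays, against 2.17% of all genes. That share reuses the HET and WT chow arrays by which the stretch was noticed. Ocel1 ranged over 4.43 to 5.25 in those 12 arrays, against 5.76 and 5.82 in WT, and Bst2 over 9.96 to 11.37, against 9.39 and 9.40 in WT. Spsb3 and Mlst8 both lie on chromosome 17 with 25 tested genes between them, 0 of which had an unadjusted p under 0.05. In a stretch of 101 tested genes centred on Lmna on chromosome 3, 2 (1.98%) had such a p. For 5 (4.95%), Lmna itself among them, all 12 arrays with a floxed copy lay on one side of both WT arrays.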
